A study of Homo sapiens with 3 samples.

Results

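The transcriptome of Jurkat cells grown with 50 mM sodium oxamate was set against that of control cells, gene by gene. Jurkat is an established human T-lineage acute lymphoblastic leukaemia line. The control culture had no addition, the oxamate culture had 50 mM sodium oxamate for 48 hours, and a further culture, oxamate+lactate, had both 50 mM sodium oxamate and 10 mM of L-sodium lactate. Each condition had 1 library of polyadenylated RNA with ERCC spike-in RNAs, and the labels do not say how many cultures stand behind a library. The comparison covers 12292 of 17329 genes, those with 50 or more normalized counts on average over the 3 libraries. Genes near this floor were RGS16 (71 in control and 29 in oxamate) and C16orf74 (53 and 38) just inside it, and COL4A4 (68 and 42) and STXBP5-AS1 (34 and 63) just outside it. A gene under 50 in control or in oxamate passed only through higher values in its other libraries, so among low genes the floor favours those that differ. Each difference is given, in parentheses after the values, as the log2 ratio of oxamate to control after adding 1 to both. Where 3 values are given for a gene, they stand in the order control, oxamate and oxamate+lactate. With 1 library a side there is no test, and "higher" and "lower" compare these libraries.

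Oxamate is a structural analogue of pyruvate that inhibits lactate dehydrogenase, the enzyme that turns pyruvate into lactate and returns NAD+ to glycolysis. Lactate is also the source of lactylation, an acyl mark on histone lysines, and the series was designed around the lactylation of histone H3. Neither lactate nor lactylation was measured in these libraries. LDHA stood at 4937 normalized counts in control against 4952 in oxamate, and LDHB at 7383 against 7363.

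The values summed over genes to 8220199 in control and 8821115 in oxamate, and the number of reads behind them is unknown. Log2 ratios of the 18 spike-in RNAs whose mean was 100 or more ran from -0.24 to 0.29, with a median of 0.00 and an SD of 0.13. Spike-ins carry the error of library preparation and sequencing, and none of the variation of cell culture. Over the 12292 genes the median ratio was 0.08 and the SD 0.38. The SD of the ratios was 0.52 among genes with a mean of control and oxamate under 100, and 0.32 for those between 1000 and 3000, so a given ratio says less for a low gene. Of 15 T-lineage markers, 14 had a row and 12 were over the floor, with summed levels of 19352 in control and 24013 in oxamate. TRBC1 had no row. Of 10 B-lineage markers, 5 had a row, with sums of 143 and 105, and MS4A1, PAX5 and CD22 had none. Of 12 myeloid markers only 1 had a row (6 and 13), and of 12 erythroid and platelet markers also 1 (19 and 15). Of 10 epithelial and fibroblast markers 3 had a row, with sums of 294 and 298, among them COL1A1 at 202 in both libraries.

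Among all genes over the floor, 149 (1.21%) were higher in oxamate by 2-fold or more and 108 (0.879%) were lower by as much. At 1.5-fold these counts were 920 (7.48%) and 489 (3.98%). The counts of list and family members given below are to be read beside these shares. Of 80 curated gene lists and 113 families of genes with a shared name, each with at least 5 genes over the floor, 9 had a median at least 0.25 above that of all genes and 4 at least 0.25 below it. These 9 were the GIMAP GTPases, counted as a list and as a family, T-lineage markers, chemokine and lipid mediator receptors, potassium channels, basic helix-loop-helix and related factors, SOX factors, genes with a TUB name and serpins. The 4 lower ones were RGS proteins, aldo-keto reductases, stress-response genes of the GADD and SESN type, and HLA genes. Of the 5 serpin genes over the floor, none was at least 1.5-fold higher and 1 was at least 2-fold lower (-1.06), around a median of 0.39. The limit of 0.25 is a size and not a test.

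**Figure D1:**
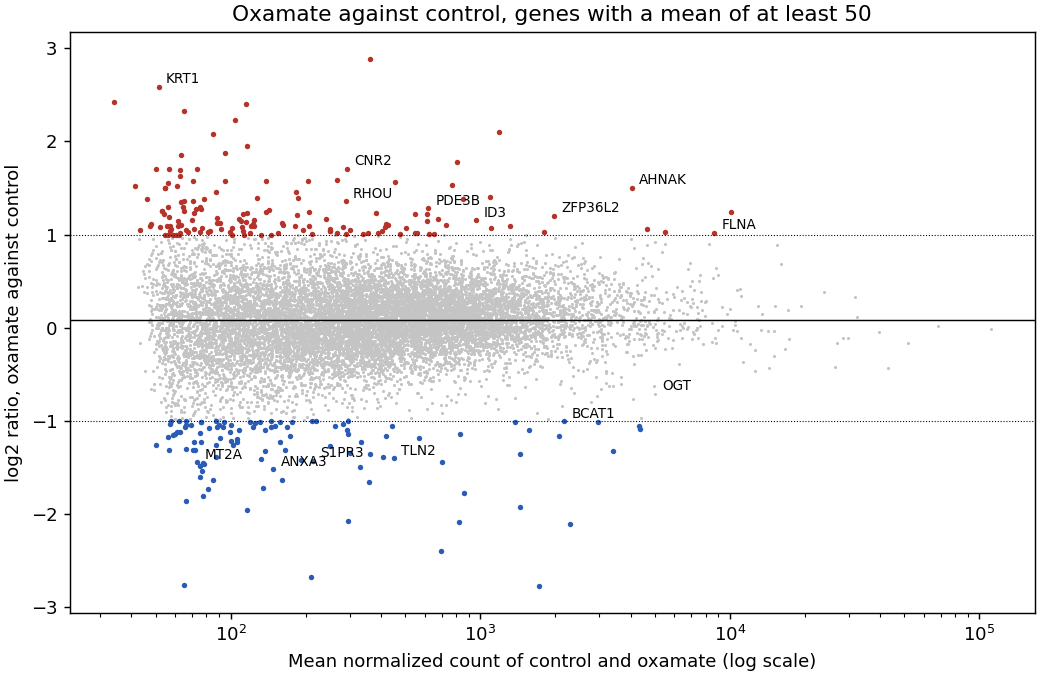
Log2 ratio of oxamate to control for the 12292 genes against their mean normalized count in both libraries (log scale); red and blue points are the 149 genes at least 2-fold higher and the 108 at least 2-fold lower, the solid line is the median ratio of 0.08, and the dotted lines mark 2-fold. The labelled genes are described in the text, and the spread is wider at the left, among low genes.

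By absolute amount, the 15 largest increases made up 7.40% of the summed increase over all genes and the 15 largest decreases 14.2% of the summed decrease. Besides chaperones, the increases were led by cytoskeletal genes. ACTB, beta-actin, had 28202 normalized counts in control, 35477 with oxamate and 29158 with oxamate+lactate, and TUBB, a beta-tubulin, had 20724, 27010 and 20882. The decreases were led by mitochondrial rRNA and GAPDH. MT-RNR2, the large mitochondrial rRNA, had 49162, 36503 and 47232, and GAPDH, a glycolytic enzyme often taken as a reference gene, had 30341, 22640 and 22181. Their ratios were -0.43 and -0.42. PABPC1, the cytoplasmic poly(A)-binding protein, had 16555, 13403 and 13410, and SLC7A5, a transporter of large neutral amino acids, had 14610, 10590 and 10998. In oxamate+lactate, MT-RNR2 was near its control value, whereas GAPDH, PABPC1 and SLC7A5 were near their oxamate values.

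**Figure D2:**
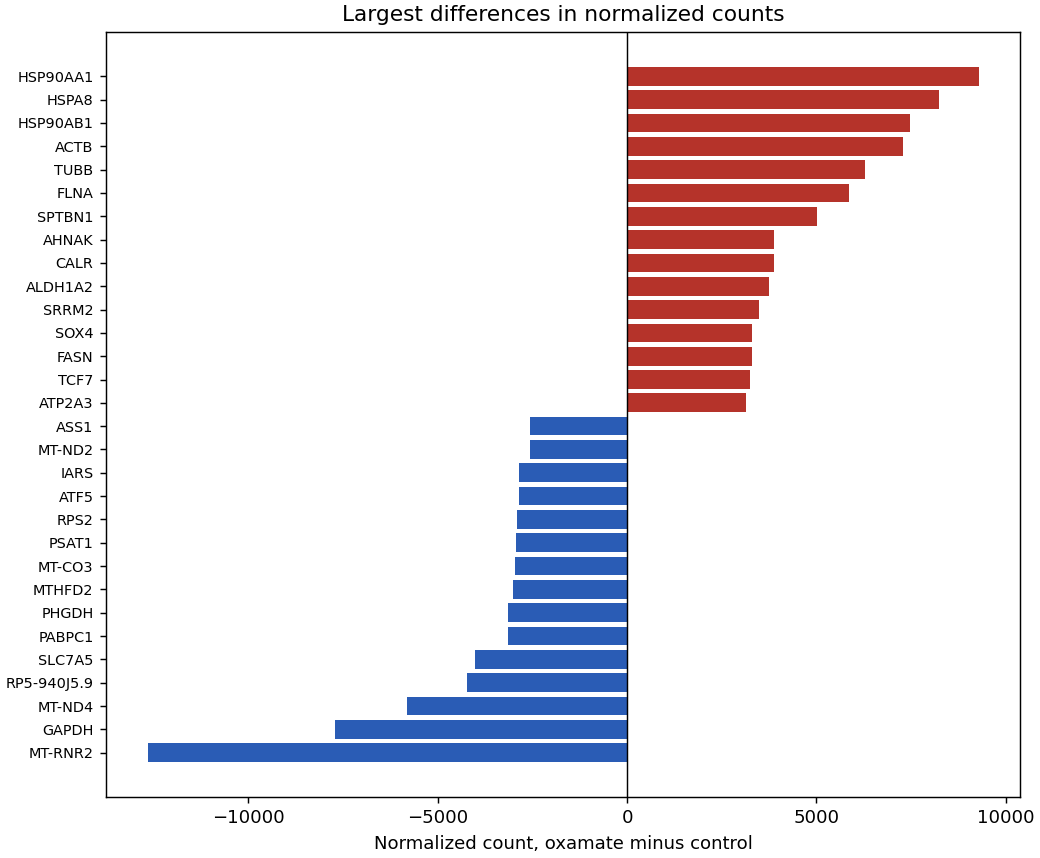
Difference in normalized counts, oxamate minus control, for the 15 genes with the largest increase (red) and the 15 with the largest decrease (blue). HSP90AA1, HSPA8 and HSP90AB1 lead the increases, and MT-RNR2, GAPDH and MT-ND4 the decreases.

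Receptors for chemokines and lipid mediators, which direct lymphocytes to and within tissues, stood high as a group but went both ways. The list had 16 genes over the floor of 34 with a row, a median of 0.37, and 4 members at least 1.5-fold higher, while 4 lay at least 1.5-fold lower. In bulk RNA, fewer cells of a kind and less RNA per cell cannot be told apart. CNR2, the cannabinoid receptor of immune cells, had 136 normalized counts in control, 447 with oxamate and 293 with oxamate+lactate (1.71). GPR183, a receptor for oxysterols that guides lymphocyte position, had 26, 87 and 73 (1.70). S1PR3, a receptor for sphingosine 1-phosphate, was the lowest member at 311, 115 and 172 (-1.43). Leukotriene B4 receptors were also lower, with LTB4R at 689 and 422 (-0.71) and LTB4R2 at 268 and 173 (-0.63). These genes overlap each other, and LTB4R2 also overlaps CIDEB and NOP9. ALOX5AP, the protein that presents arachidonic acid to the leukotriene-forming lipoxygenase, had 125, 37 and 55 (-1.73), which is outside this list.

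Of the cytokines and chemokines, 12 of 68 listed genes were over the floor, 1 at least 1.5-fold higher, while 4 lay at least 1.5-fold lower. VEGFA, the growth factor for endothelial cells, was the lowest at 590, 225 and 331 normalized counts in control, oxamate and oxamate+lactate (-1.39). CXCL16, a membrane-bound chemokine that overlaps MED11, was the highest at 44, 68 and 64 (0.62). TGFB1, the most abundant of those named here, which overlaps HNRNPUL1, had 1363 and 1338 (-0.03). Among TNF receptors and ligands, 17 were over the floor with a median of 0.22. TNFRSF8, which encodes the activation receptor CD30, had 137, 257 and 198 (0.90), and the death receptor gene FAS, which overlaps ACTA2, had 162, 110 and 90 (-0.55).

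Surface proteins of the immunoglobulin type split sharply. This list, chosen after the values were seen, held 18 genes over the floor, of which 3 were higher and 4 lower by 2-fold or more. CD96, a receptor for nectin-like ligands on T and NK cells, had 115 normalized counts in control, 39 with oxamate and 69 with oxamate+lactate (-1.54). SIRPG, which binds CD47, had 115, 41 and 64 (-1.47), while CD47 itself had 1810, 2539 and 2271 (0.49). LY9 and CD84 are both members of the SLAM family, receptors that bind their own kind on neighbouring leukocytes. LY9 had 103, 41 and 63 (-1.31), and CD84 had 163, 336 and 238 (1.04). CADM1, an adhesion molecule of the same superfamily, had 228, 108 and 133 (-1.07). The third library lay between the other two for each of these genes.

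Integrins and their partners, which anchor cells to matrix and to other cells, had a median of 0.04 over 38 genes, with 1 gene at least 1.5-fold higher, while 6 lay at least 1.5-fold lower. TLN2, a talin that links integrins to actin, had 656 normalized counts in control, 248 with oxamate and 330 with oxamate+lactate (-1.40). ITGB7, a beta chain of gut-homing integrins that overlaps ZNF740, had 89, 44 and 53, a 2-fold lower value in oxamate. ITGA6, a laminin-binding alpha chain, had 674, 364 and 409 (-0.89). ITGA4, the alpha chain that pairs with ITGB7, had 6232, 8829 and 7553 (0.50). These partner chains differed in direction, at very different levels.

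Regulators of G-protein signalling, the RGS proteins that speed the shut-off of G alpha subunits, had 6 members over the floor and a median of -0.38. RGS16 had 71, 29 and 50 normalized counts in control, oxamate and oxamate+lactate (-1.26), RGS17 had 121, 61 and 60 (-0.98), and RGS10 had 217, 115 and 150 (-0.91). The other members were not lower, with RGS14 at 290 and 324 (0.16), RGS12 at 333 and 494 (0.57) and RGS19 at 226 and 394 (0.80). The family median thus falls in the gap between RGS10 and RGS14. RGS16 lay at the edge of the floor, with a mean of 50 over the 3 libraries, so the median leans on a gene that barely entered. GNAO1, a G alpha subunit, had 432, 170 and 223 (-1.34). In the wider list of G proteins, adenylate cyclases and their regulators, 50 genes were over the floor, with 5 at least 1.5-fold higher, while 5 lay at least 1.5-fold lower. Over all genes these shares were 7.48% and 3.98%. The list median was 0.06, near that of all genes. PDE3B, a phosphodiesterase that breaks down cyclic AMP, was its highest member at 360, 876 and 688 (1.28).

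Enzymes and brakes of other signalling routes gave single large ratios within lists that stayed near the median of all genes. Among 64 inositol lipid enzymes, PLCL2, a phospholipase C-like protein without catalytic activity, had 369, 745 and 643 normalized counts (1.01) and PLD1, a phospholipase D, had 83, 41 and 51, 2-fold lower in oxamate. SPRY1, an inhibitor of RAS-ERK signalling, had 43, 107 and 97 (1.30), the highest of 19 such feedback inhibitors over the floor, and CBLB, a ubiquitin ligase that limits T-cell activation, had 250, 165 and 194 (-0.60), the lowest. RHOU, an atypical small GTPase, had 162, 416 and 319 (1.36), and PREX2, an exchange factor for RAC, had 442, 243 and 270 (-0.86). RAP1GAP2, which switches off RAP1, had 394, 1140 and 865 (1.53).

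Genes of the potassium channel family, which set membrane potential and the driving force for calcium entry in lymphocytes, stood among the highest. Of 47 genes with a KCN name and a row, 20 were over the floor. Their median was 0.52, 9 were at least 1.5-fold higher, 3 of these reached 2-fold, and 1 lay at least 1.5-fold lower. KCNH2, which encodes the hERG channel, had 360 normalized counts in control, 731 with oxamate and 616 with oxamate+lactate (1.02), and KCNK1, a two-pore channel, had 193, 389 and 329 (1.01). KCNA3, the main voltage-gated potassium channel of T cells, had 222, 410 and 325 (0.88) and was picked after its value was seen. The lowest were KCNG1 at 74, 45 and 57 (-0.71), a modifier subunit, and KCNMB4 at 100, 69 and 69 (-0.53), a subunit of calcium-activated channels. Once the trend with GC content and length was taken out, the median of the family was 0.40. The wider list of potassium and calcium channels, chosen by gene and not by name, had 30 over the floor and a median of only 0.14, and its lowest member was CACNA1D, an L-type calcium channel subunit that overlaps CHDH, at 94, 45 and 42 (-1.05).

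The GIMAP genes form a cluster of GTPases tied to lymphocyte survival. All 6 that had a row were over the floor, with a median of 0.60. GIMAP5 had 84 normalized counts in control, 156 with oxamate and 134 with oxamate+lactate (0.89), and it overlaps GIMAP1. GIMAP7 had 57, 104 and 103 (0.86), GIMAP6 had 50, 80 and 59 (0.67), GIMAP2 had 208, 302 and 242 (0.54), and GIMAP1 had 56, 73 and 73 (0.38). GIMAP4 was apart from these at 90, 52 and 68 (-0.78). All but GIMAP2 had low levels, where ratios are the least certain.

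**Figure D3:**
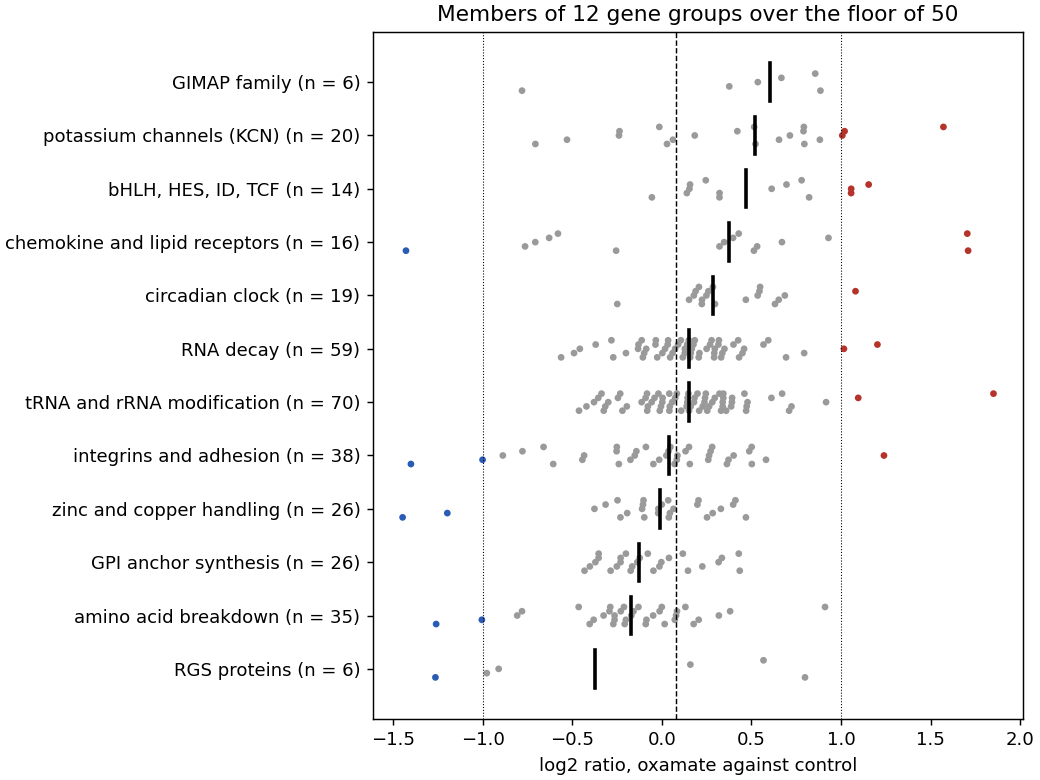
Log2 ratios of oxamate to control for the members over the floor of 12 gene groups; each point is a gene, black bars are group medians, the dashed line is the median of all genes (0.08), dotted lines mark 2-fold, and red and blue points are genes at least 2-fold higher or lower. The medians of the GIMAP genes, the potassium channels and the helix-loop-helix and TCF family lie furthest right (0.60, 0.52 and 0.47). The RGS median lies furthest left (-0.38), in a group whose members split in both directions. The zinc group holds 2 low genes apart from a narrow rest.

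Some genes for proteins that brace the plasma membrane from inside were among the abundant genes with high ratios. In a list of the membrane skeleton chosen after the values were seen, 35 genes were over the floor. The median was 0.18, within 0.25 of that of all genes. At least 1.5-fold higher were 6 genes, while 2 lay at least 1.5-fold lower. Over all genes these shares were 7.48% and 3.98%. AHNAK, a giant scaffold protein under the membrane, had 2114 normalized counts in control, 5987 with oxamate and 4526 with oxamate+lactate, 2.83-fold higher in oxamate than in control. FLNA, filamin A, which crosslinks actin filaments, had 5713, 11563 and 7664 (1.02). The spectrins SPTBN1 and SPTAN1, which pair in non-erythroid cells, had 5771, 10792 and 8306 (0.90) and 3741, 5911 and 4622 (0.66). The erythroid beta-spectrin gene SPTB went the other way at 179, 106 and 104 (-0.75), as did TLN2. In the annotation SPTAN1 overlaps WDR34 and SPTB overlaps PLEKHG3. Moesin and ezrin genes were not among the 1.5-fold differences. Genes with a name in TUBA, TUBB or TUBG, which cover tubulins and the gamma-tubulin complex, had 18 over the floor, a median of 0.34 and 3 at least 1.5-fold higher. A curated list that adds other tubulins, their folding cofactors and stathmins had 25 over the floor and a median of 0.20, within 0.25 of that of all genes, and its lowest member was TUBE1, epsilon-tubulin, which overlaps WISP3, at 575, 353 and 381 (-0.70). TUBB3 had 156, 295 and 202 (0.91), TUBA1A, which shares exons with TUBA1C in the annotation, had 1169, 1867 and 1282 (0.67), and TUBB4B, which overlaps FAM166A, had 1733, 2732 and 1998 (0.66). Alpha-tubulin genes, and beta-tubulin genes, are near-identical copies, so reads could be split among them in an unknown way. KRT1, an epidermal keratin, had the highest ratio of the intermediate filament list at 14, 89 and 48 (2.58), from a very low control value. It passed the floor only through its oxamate value, so its place at the top of the list is partly set by the filter.

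The CArG box is the DNA element bound by serum response factor, which drives immediate early and actin cytoskeleton genes. Of the 256 genes named by rule, 197 had a promoter of 300 bases (250 before to 50 after the start) in the RefSeq table of GRCh38.p14. A CArG box, searched as CC, then 6 bases that are each A or T, then GG, was present in 5 of these, EGR1, FLNA, GPR183, TCF7 (which overlaps SKP1) and H2AFY. The first 4 were more than 2-fold higher in oxamate, and H2AFY, a histone variant, had 3231 and 4094 (0.34). Most of the 197 genes were named for high or low ratios, so this split is no evidence about the box. A CArG box was held by 1.60% of all 27305 genes in the table, by 136 of the 9041 that were over the floor, and by 9 of the 622 at least 1.5-fold higher. It was held by 4 of 94 genes at least 2-fold higher and 2 of 73 at least 2-fold lower. The table covers fewer than 80% of the genes in each of these groups, so the shares were not compared. EGR1, an immediate early transcription factor, had 85 normalized counts in control, 636 with oxamate and 381 with oxamate+lactate (2.89), the highest ratio of all genes. The bases upstream of EGR1 and FLNA are shown because they carry the boxes of the highest gene and of the most abundant membrane skeleton gene with a 2-fold ratio, with the boxes in capitals. Those of EGR1 begin 105 and 83 bases before the start, and that of FLNA 94 bases before it. A match is a sequence, and binding was not measured.
EGR1, chr5:138465329-138465478, plus strand: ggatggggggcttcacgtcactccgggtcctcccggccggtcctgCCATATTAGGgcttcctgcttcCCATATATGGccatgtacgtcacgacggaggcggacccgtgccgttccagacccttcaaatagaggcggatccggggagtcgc
FLNA, chrX:154374635-154374754, minus strand: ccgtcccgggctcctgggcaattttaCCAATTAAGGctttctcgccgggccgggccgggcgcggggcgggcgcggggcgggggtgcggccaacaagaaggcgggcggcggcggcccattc

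Among transcription factors, a name family of helix-loop-helix and TCF genes, with the inhibitors of differentiation, stood high. This family goes by name, so it also takes in genes that are not helix-loop-helix factors, such as the HMG-box factor TCF7 and TCF19. It had 14 genes over the floor, with a median of 0.47. Of these, 7 were at least 1.5-fold higher, 3 at least 2-fold higher and none at least 1.5-fold lower. ID3 and ID1 encode proteins that bind E proteins and keep them off DNA. ID3 had 597 normalized counts in control, 1330 with oxamate and 997 with oxamate+lactate (1.15), and ID1 had 162, 338 and 246 (1.06). TCF3, which encodes the E proteins E12 and E47 and was picked after its value was seen, was also higher at 3597, 5827 and 4843 (0.70). TCF12, another E protein gene, had 3407, 3754 and 3821 (0.14). With a floor of 200 the median of the family was 0.32.

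Among other transcription factors, single genes gave some of the largest ratios. In the list of myeloid and erythroid factors, 14 genes were over the floor, with a median of 0.10, near that of all genes. At least 2-fold higher were 4 of them, against 1.21% of all genes. MAF had 36, 194 and 153 normalized counts in control, oxamate and oxamate+lactate (2.40) and CEBPE, a factor of granulocyte maturation, had 21, 109 and 89 (2.32). Both were low in control and passed the floor only through the libraries with oxamate, where they were high. The other 2 of the 4 genes were ID1 and ID3, which this list shares with the family above. CEBPB, a relative of CEBPE, was the lowest member at 581, 367 and 517 (-0.66). Of 12 myeloid markers none was over the floor. Among 33 homeobox genes outside the HOX clusters, 23 lay above the median of all genes. TLX2 had 77, 168 and 179 (1.12). POU6F1 was the lowest at 123, 71 and 116 (-0.78). ETS2 had 417, 938 and 756 (1.17), the only one of 15 ETS factors at least 1.5-fold higher. SOX11, a SOX factor, had 102, 269 and 192 (1.39).

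The clock genes leaned one way. Of 19 over the floor, 18 lay above the median of all genes, which left PER2 at 252, 212 and 214 normalized counts (-0.25). The list median was 0.29, within 0.25 of that of all genes. NR1D1, a repressor in the clock loop that overlaps the receptor gene THRA, had 181, 384 and 277 (1.08). Genes of retinoid metabolism and signalling, a list chosen after the values were seen, had 12 over the floor and a median of 0.36. ALDH1A2, which makes retinoic acid and overlaps AQP9, had 3628, 7386 and 5813 (1.03). RXRA, the partner receptor of many nuclear receptors, had 44, 91 and 79 (1.03). RDH10, which makes the retinal that ALDH1A2 uses, had 203, 170 and 191 (-0.25).

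Machinery of RNA decay, processing and modification held a few large ratios in lists close to the median of all genes. Of 59 RNA decay genes, 5 were at least 1.5-fold higher, while none lay at least 1.5-fold lower. Over all genes the shares past 1.5-fold were 7.48% upward and 3.98% downward. ZFP36L2 and ZFP36 encode proteins that bind AU-rich elements and promote decay of cytokine and growth-related mRNAs. ZFP36L2 had 1192 normalized counts in control, 2746 with oxamate and 2200 with oxamate+lactate (1.20), and ZFP36 had 176, 357 and 297 (1.02). EXOSC8, an exosome subunit that overlaps SUPT20H, was the lowest at 709, 480 and 533 (-0.56). Of 70 tRNA and rRNA modification genes, 7 were at least 1.5-fold higher, while none lay at least 1.5-fold lower. TRMT44, a tRNA methyltransferase, had 115, 247 and 177 (1.10), and TRMT13, another, which overlaps LRRC39, was the lowest at 280, 203 and 219 (-0.46). Among snoRNA host genes, SNHG3, which shares exons with RCC1, had 433, 873 and 645 (1.01), while SNHG8 had 387, 229 and 302 (-0.75). ELL2, an elongation factor of RNA polymerase II, had 147, 68 and 63 (-1.10), and AFF1, a scaffold of the same super elongation complex, had 936, 1645 and 1303 (0.81).

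Zinc and copper genes were nearly flat apart from 2. The list had 26 genes over the floor, with a median of -0.01, none was at least 1.5-fold higher, and the 2 that were at least 1.5-fold lower were also at least 2-fold lower. MT2A, a metallothionein that buffers zinc and copper, had 108 normalized counts in control, 39 with oxamate and 52 with oxamate+lactate (-1.45). SLC30A1, the exporter of zinc at the plasma membrane, had 148, 64 and 98 (-1.20). The next lowest was the zinc transporter gene SLC39A11 at 156, 120 and 127 (-0.38). MTF1, the zinc sensor that activates metallothionein genes and SLC30A1 through metal response elements, had 289, 297 and 276 (0.04). The core of this element, TGCNCNC on either strand, was searched in the promoters of both low genes, shown here with matches in capitals. MT2A held 8 matches in the 300 bases, 6 of them in the 180 bases shown, and SLC30A1 held 2, with 1 in the 120 bases shown. The letters are common, present at least 1 time in 59.4% of all genes in the table and 70.9% of those over the floor, and at least 3 times in 10.4% and 13.8%.
MT2A, chr16:56608404-56608583, plus strand: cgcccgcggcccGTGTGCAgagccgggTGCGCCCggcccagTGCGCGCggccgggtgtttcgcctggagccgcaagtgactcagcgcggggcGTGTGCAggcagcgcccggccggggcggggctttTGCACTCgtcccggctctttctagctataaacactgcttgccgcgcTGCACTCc
SLC30A1, chr1:211579162-211579281, minus strand: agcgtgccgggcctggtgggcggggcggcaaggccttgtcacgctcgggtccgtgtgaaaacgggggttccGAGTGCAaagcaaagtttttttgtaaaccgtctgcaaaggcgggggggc

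Genes of amino acid breakdown leaned low, short of the limit used for groups. Of 35 over the floor, 1 was at least 1.5-fold higher, while 4 lay at least 1.5-fold lower. The median was -0.17, just within 0.25 of that of all genes, and -0.11 with the trend of GC content and length taken out. AMT and GLDC are subunits of the same mitochondrial glycine cleavage system, and they differed in direction. AMT had 145 normalized counts in control, 60 with oxamate and 67 with oxamate+lactate (-1.26), and GLDC had 116, 219 and 206 (0.91). BCAT1, the cytosolic aminotransferase of branched-chain amino acids, had 2889, 1440 and 1783, 2.01-fold lower in oxamate. The letters TGATGNAA, a core of the composite element bound by C/EBP and ATF4 proteins, were found in the promoters of 7 of the 197 named genes, in 4.46% of all genes in the table and in 2.54% of those over the floor. They were held by 7 of 73 genes at least 2-fold lower and 1 of 94 at least 2-fold higher, with the same gap in coverage. BCAT1 and ASNS were the named genes with these letters that were at least 2-fold lower. ASNS, asparagine synthetase, is the best-known carrier of this element and had 1327, 312 and 495 (-2.09). The stretches below set the core (capitals) of BCAT1, 48 bases before the start, beside that of ASNS, 68 bases before it.
BCAT1, chr12:24949102-24949351, minus strand: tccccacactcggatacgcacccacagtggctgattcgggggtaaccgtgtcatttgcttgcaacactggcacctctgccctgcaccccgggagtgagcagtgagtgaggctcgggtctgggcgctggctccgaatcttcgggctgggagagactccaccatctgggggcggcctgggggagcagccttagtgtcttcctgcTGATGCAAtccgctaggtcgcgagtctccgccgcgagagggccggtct
ASNS, chr7:97872409-97872518, minus strand: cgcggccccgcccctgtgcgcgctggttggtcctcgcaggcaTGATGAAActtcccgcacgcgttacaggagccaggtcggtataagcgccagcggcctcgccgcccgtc

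Other metabolic and organelle genes differed one at a time. LONP1, the main protease of the mitochondrial matrix, had 5168 normalized counts in control, 3049 with oxamate and 3534 with oxamate+lactate (-0.76), the only one of 19 mitochondrial chaperones and proteases at least 1.5-fold lower, and it overlaps RPL36. OGT, which attaches N-acetylglucosamine to nuclear and cytosolic proteins, had 6205, 3796 and 4175 (-0.71). It was the only one of 36 genes of the hexosamine and sugar nucleotide list at least 1.5-fold different. In the same list GMDS at 615, 410 and 459 (-0.58) and UAP1 at 734, 1096 and 876 (0.58) lay just within 1.5-fold. GPCPD1, which splits glycerophosphocholine, had 544, 172 and 240 (-1.66). NDUFA4L2, a mitochondrial protein related to a subunit of cytochrome oxidase, had 129, 41 and 51 (-1.63) and overlaps SHMT2. ANXA3, an annexin, had 220, 76 and 105 (-1.52), while LGALS9, galectin 9, had 226, 455 and 281 (1.01). SLC6A6, the taurine transporter, which overlaps GRIP2, had 601, 1597 and 1154 (1.41). HLA genes had 7 members over the floor and a median of -0.19, and none was at least 1.5-fold different. The aldo-keto reductase family had 5 members over the floor, a median of -0.26 and 1 member at least 1.5-fold lower, AKR1C1 at 125, 73 and 94 (-0.77).

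**Figure D4:**
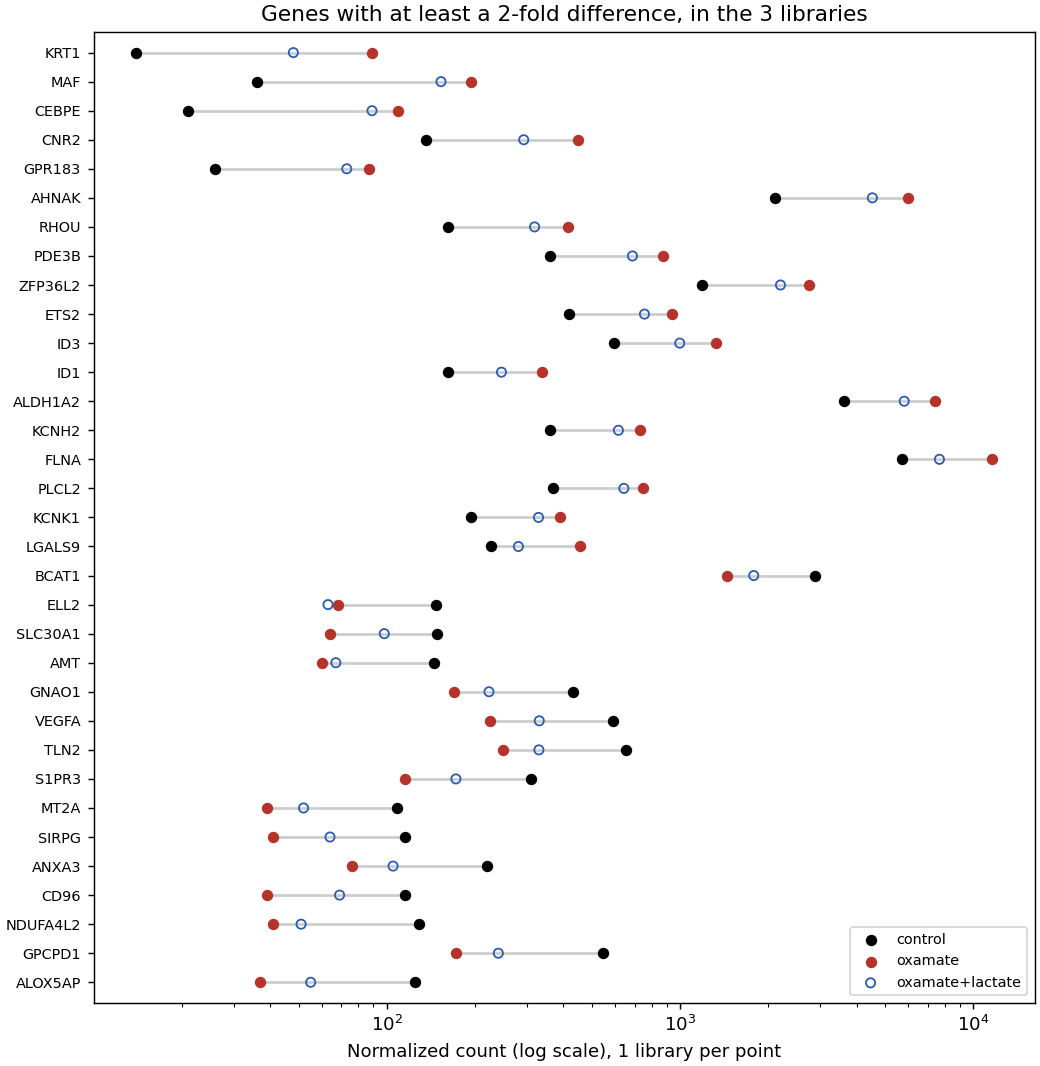
Normalized counts of 33 genes with at least a 2-fold difference between oxamate and control, on a log scale, with 1 library per point (black control, red oxamate, open blue oxamate+lactate) and genes ordered by their ratio from KRT1 (2.58) to ALOX5AP (-1.73). The oxamate+lactate point lies between the other two for every gene shown except ELL2, and for all that are higher in oxamate it is above control. The genes were picked among those past 2-fold, and an effect of lactate was not tested. TLX2 (77, 168 and 179) and CACNA1D (94, 45 and 42), also past 2-fold but not shown, do not lie between.

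In 10 of the 80 lists no member was beyond 1.5-fold in either direction. Among these were the GPI anchor enzymes (26 genes over the floor, median -0.13, 7 of them above the median of all genes), Mediator subunits (33 genes, 0.14), RNA polymerase II and III subunits (40 genes, 0.18), COPI and COPII coat genes (42 genes, 0.01) and the m6A and cap methylation list (31 genes, -0.01). Cilium and intraflagellar transport genes had 45 over the floor, a median of -0.12, none at least 1.5-fold higher, while 4 lay at least 1.5-fold lower. The lowest of them was DYNC2LI1, a light chain of the ciliary dynein, at 112, 58 and 62 normalized counts in control, oxamate and oxamate+lactate (-0.94). HSP90 co-chaperones and BAG proteins had a median of 0.22 over 19 genes, with 3 at least 1.5-fold higher. The highest was AHSA1, an activator of the HSP90 ATPase that overlaps VIPAS39, at 828, 1335 and 1023 (0.69).

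The ratios followed base composition. Across 11213 genes with an annotated transcript the Spearman correlation of the ratio with GC content was 0.31, and with transcript length 0.02, as a description across genes that share both libraries. The median ratio was -0.07 in the lowest of 10 equal bins of GC content and 0.27 in the highest. Of the genes at least 2-fold higher, 42 fell in the highest bin, against 1 to 17 in each of the others, while those at least 2-fold lower numbered 7 to 14 in every bin. The part of GC content in the differences was not tested. With the median ratio of all genes set to 0, FLNA, ALDH1A2, ID1, KCNH2, KCNK1, CD84, PLCL2, LGALS9, RXRA, SNHG3, TCF7 and ZFP36 were higher by at least 1.5-fold and less than 2-fold, and 99 genes were at least 2-fold higher and 132 lower. Without the GC and length trend, 89 genes were at least 2-fold higher and 97 lower. The median of chemokine and lipid mediator receptors was then 0.30, within 0.25 of that of all genes, and so were those of the T-lineage markers (0.29), SOX factors (0.16), retinoid genes (0.31) and genes with a TUB name (0.26). For the GIMAP genes, the potassium channels, the helix-loop-helix and TCF family and the RGS proteins, the medians were then 0.67, 0.40, 0.38 and -0.38. These stayed at least 0.25 from that of all genes.

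**Figure D5:**
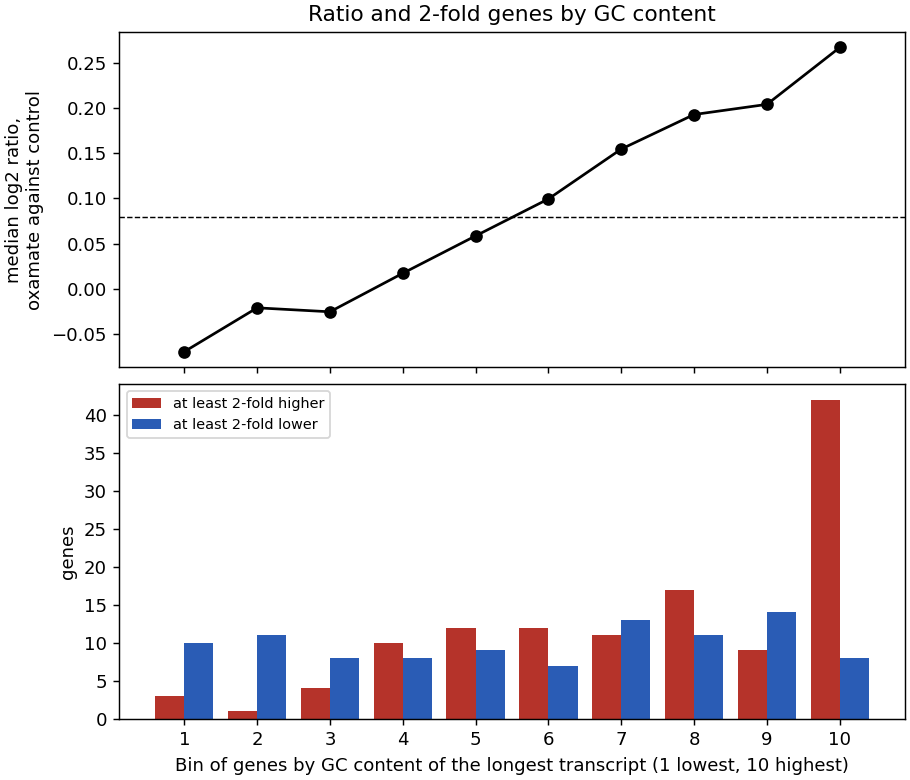
Median log2 ratio of oxamate to control (top; dashed line, 0.08 for all genes) and numbers of genes at least 2-fold higher (red) or lower (blue) (bottom) in 10 equal bins of 11213 genes by the GC content of their longest transcript. The median climbs from -0.07 to 0.27, and the highest bin holds 42 of the 2-fold higher genes.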

How the data were processed

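The authors deposited 1 table of normalized counts, with 1 column for each of 3 libraries, all of which were used (0 other columns of per-sample values). All of its values are whole, and they were taken as a score that the authors normalized and rounded, to which no count model was fitted. The submitters' processing notes list FastQC 0.11.9, STAR 2.7.1a, HTSeq 0.11.2 and hg19 without roles. Annotation, gene filter and normalization: not given in the sources used here. Per the labels' protocols the library kit was one that keeps no strand, so overlapping or antisense genes cannot be told apart, and coding genes that share exon positions in the annotation are named where a gene is described (HSP90AA1 overlaps WDR20). Normalization can absorb a global difference in RNA per cell.

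Ratios were log2((oxamate + 1)/(control + 1)) for genes with a mean over 3 libraries of at least 50, after the 36 ERCC rows were set aside. With 1 library per condition, no p-value or standard error was computed. Members and lists were chosen with earlier results of these data known. Genes named by rule were the 25 highest and 25 lowest ratios with a value of at least 100 in control or oxamate, the 15 largest increases and decreases, the ends and 2-fold members of lists with at least 5 genes over the floor, the 3 highest and lowest of families with at least 10 genes whose median was at least 0.25 from that of all genes, and LDHA, LDHB, EP300 and MYC. This gave 256 genes, of which the text describes part; some are not reported here. Other genes were picked after their values were seen. Gene type, GC content, length and exon overlap came from GENCODE 29, matched by symbol or synonym for 91.2% of the genes, and promoters from RefSeq (GRCh38.p14), another build than the files. The trend on GC and length was removed with lowess (fraction 0.3, statsmodels 0.14.6). The code for the ratio and fold counts was checked on simulated libraries with planted changes and counting noise only. Such libraries hold no variation of culture or preparation, so they say nothing of the reliability of the fold counts. Python 3.11.15, pandas 2.3.3 and numpy 2.4.6 were used.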

Additional observations from a re-analysis of the deposited data

How the results depend on the processing

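Counts of 2-fold genes depended on the floor and the scaling. Of genes at least 2-fold higher (149 as reported), there were 51 with a floor of 200, 808 with no floor, 86 with equal sums over genes, 99 with the median ratio set to 0, 89 with the GC and length trend removed, and 71 without genes whose exons overlap another gene, which left 5411 genes. Of those at least 2-fold lower (108 as reported), there were 36, 660 and 60 with a floor of 200, with no floor and without overlapping genes; equal sums gave 146 and the median set to 0 gave 132. Equal sums moved the median of all genes from 0.08 to -0.02. The floor of 200 left 8274 genes, and leaving out overlapping genes left 5411, so these counts are taken over fewer genes. The floor of 200 also removed low genes, whose ratios spread more widely. The causes of the differences between settings were not tested. A floor of 50 on control and oxamate alone gave 147 higher and 113 lower, a pseudocount of 10 gave 103 and 75, and equal ERCC sums gave 150 and 100.

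Genes close to 2-fold changed sides. With equal sums, ALDH1A2, CD84, FLNA, ID1, KCNH2, KCNK1, LGALS9, NR1D1, PLCL2, RXRA, SLC26A1, SNHG3, TCF7, TRMT44 and ZFP36 were under 2-fold higher, and BCAT1 was under 2-fold lower with a pseudocount of 10 and with the trend removed. The median of HLA genes was 0.03 with no floor, and that of genes with a TUB name 0.10 without overlapping genes. With a floor of 200, the medians of T-lineage markers and of the helix-loop-helix and TCF family were within 0.25 of that of all genes. Low genes limit the precision, and the depth in reads is unknown. No paired analysis was possible because each condition has 1 library and the result comes from no test.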
